A study of Gallus gallus with 16 samples.

Results

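The 5 genes whose epithelial transcript level separated the narrow from the wide side of chicken feather vanes, PRPS2, TXNRD1, CA13, AP1S3 and MSANTD1, were followed through every library of growing flight and body feathers. They are 5 of the 15512 genes measured in both feather types, and they were selected on their measured TPM in feather epithelium, which differed between the narrow and the wide side. That epithelial difference is therefore described here and not tested, whereas their levels in the pulp were not used to pick them. The difference between epithelium and pulp was not used either, but its epithelial values were. All 5 passed the filter on low values in both feather types.

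Growing feathers of white leghorn chickens were separated into epithelium and pulp, the mesenchymal core, and their RNA was sequenced. Primary remiges, the flight feathers of the wing, were cut into a lateral part, which makes the narrow vane, and a medial part, which makes the wide vane, and body plumes came from the back (dorsal, narrow vane) or from the breast (wide vane). Every one of the 8 groups of region and tissue was sequenced in 2 libraries (batch I and batch II), each of which pooled the proximal follicles of 3 remiges or 25 plumes. No group carried a treatment or a mutation, and a pooled library carries no value for a single follicle or bird. The library names give the plumes another sequencing lane than the remiges and give no lane for batch I of remige pulp, so the lane cannot be told apart from feather type or, in batch I of remiges, from tissue.

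A feather vane is a row of barbs that branch from the rachis. Barbs form as ridges in the epithelium of the follicle, and their cells fill with keratins, cornify and die, while the pulp feeds and signals to that epithelium. The 5 genes belong to separate parts of cell biology. PRPS2 makes phosphoribosyl pyrophosphate, the precursor of purine and pyrimidine nucleotides. TXNRD1 is the cytosolic selenoenzyme that keeps thioredoxin reduced, and CA13 is a cytosolic carbonic anhydrase, which converts carbon dioxide and bicarbonate into each other. AP1S3 is a small subunit of the AP-1 adaptor, which loads clathrin-coated vesicles at the trans-Golgi network and endosomes, and MSANTD1 is named for a Myb/SANT-like DNA-binding domain.

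Values are given in TPM, obtained by rescaling the deposited RPKM (reads scaled to gene length and depth) of every library to a sum of 1000000. The number of alignments (M for 1000000) lay between 42.2 M and 45.8 M for remige epithelium and between 32.6 M and 37.7 M for plume epithelium. Pulp was sequenced less deeply, with 29.4 M or more for remiges and 23.4 M to 26.1 M for plumes. The tissue labels were checked with markers. Of 19 keratinocyte genes, 19 were higher in epithelium than in pulp in both feather types, and of 20 fibroblast genes 20 were lower. Remiges and plumes come from separate tables that were normalized separately, so levels set across feather types are shown side by side and tests were run within a table only. Since these are bulk libraries, fewer cells of a type and less RNA per cell cannot be told apart.

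PRPS2 showed the widest separation of the 5 in remiges. In lateral epithelium it was at 1.07 TPM in batch I and 0.992 TPM in batch II, and in medial epithelium at 15.0 and 13.1 TPM. Dorsal epithelium had 0 and 0.0983 TPM, and breast epithelium 15.0 and 16.5 TPM. Every wide-vane epithelial library thus lay between 13.1 and 16.5 TPM, and every narrow-vane one at or below 1.07 TPM, with no overlap in either feather type. Within a batch the medial level was 14.1 times the lateral level in batch I and 13.2 times in batch II, whereas the libraries of the same side differed by at most 1.15 times. On the log2(TPM + 1) scale the lateral level was lower by a difference of -2.89, the lowest of 12954 remige genes tested. PRPS2 was picked on this contrast, so nothing is read from that rank. The plume difference was -4.00 on the same scale, and no fold is given for plumes because PRPS2 was listed at 0 in one dorsal library.

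**Figure D1:**
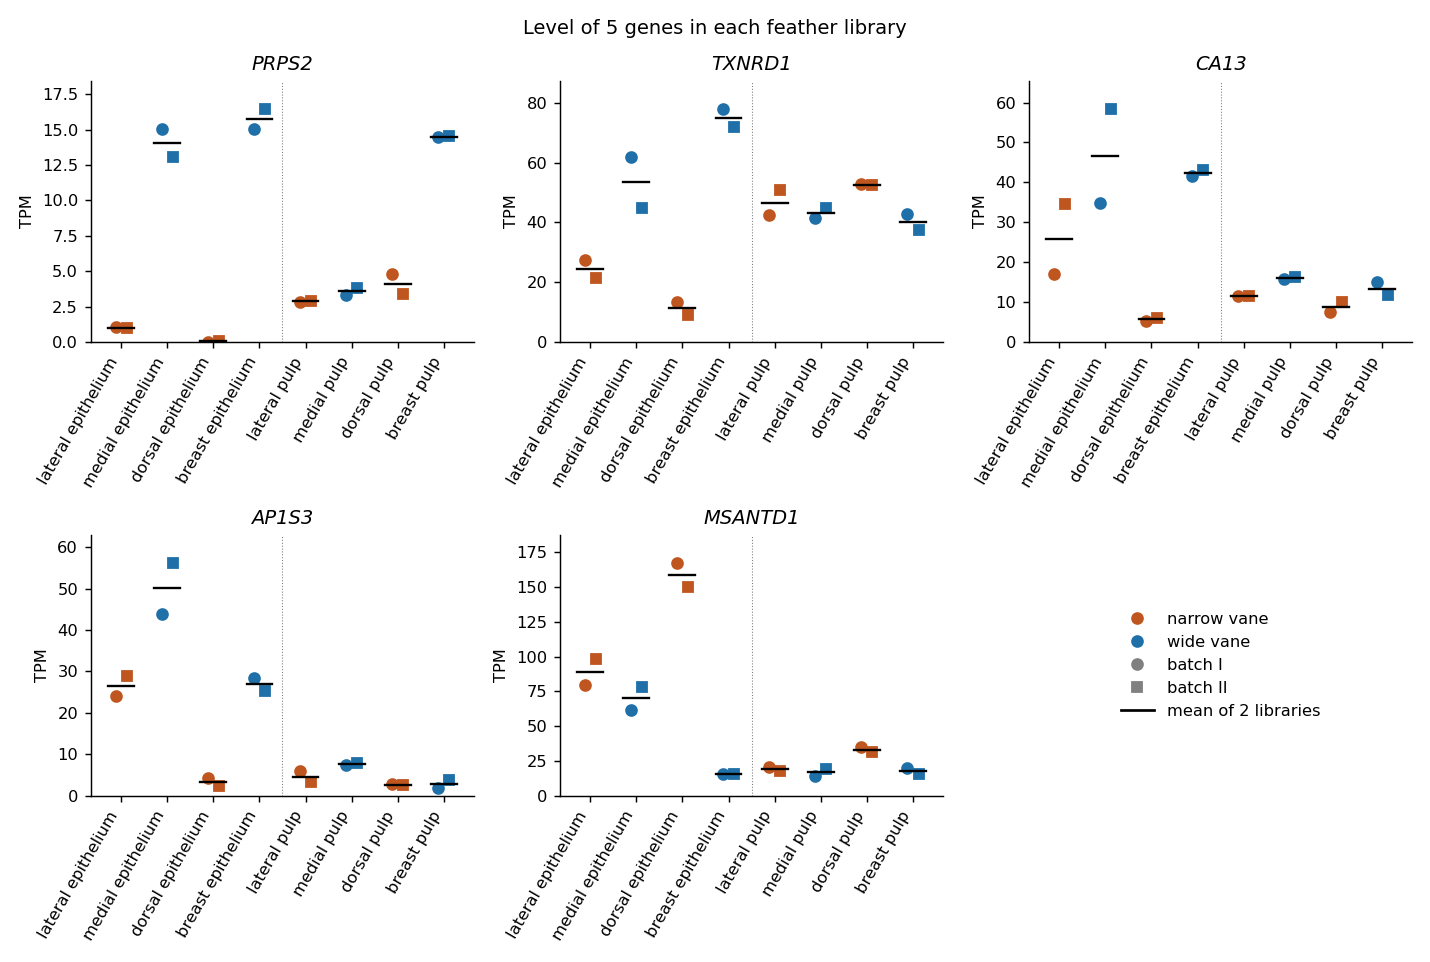
Level of PRPS2, TXNRD1, CA13, AP1S3 and MSANTD1 in TPM (vertical axes, each starting at 0) in the 16 libraries, by group, with circles for batch I, squares for batch II and a black line for the mean of the 2 libraries of a group. Narrow-vane groups are orange and wide-vane groups blue, with epithelium left of the dotted line and pulp right of it. PRPS2 is at or below 1.07 TPM in narrow-vane epithelium and at 14.5 TPM in both breast pulp libraries, and MSANTD1 is highest in dorsal epithelium (150.2 and 167 TPM).

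TXNRD1 was also lower on the narrow side of the epithelium in every batch. Lateral epithelium had 27.5 TPM in batch I and 21.5 TPM in batch II, against 61.8 and 44.9 TPM in medial epithelium. In plumes the dorsal libraries had 13.6 and 8.999 TPM and the breast libraries 77.9 and 72.0 TPM. The sides did not overlap in either feather type. The wide level was 2.25 and 2.09 times the narrow level in batches I and II of remiges and 5.75 and 7.997 times in plumes. Both remige ratios exceeded the largest ratio between the batches of a side, 1.38.

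CA13 kept its direction within both remige batches, although both sides were higher in batch II than in batch I. Its lateral epithelium libraries had 17.1 TPM in batch I and 34.6 TPM in batch II, and its medial libraries 34.8 and 58.4 TPM. The higher lateral library (34.61 TPM) and the lower medial one (34.80 TPM) were nearly equal, but these come from different batches. Within a batch the medial level was 2.03 times the lateral level in batch I and 1.69 times in batch II, log2(TPM + 1) differences of -0.98 and -0.74, whereas batch II was 2.02 times batch I on the lateral side. Dorsal epithelium had 5.29 and 6.16 TPM and breast epithelium 41.7 and 43.2 TPM. In plumes the sides were thus far apart, with breast at 7.87 and 7.02 times dorsal and batches of a side that differed by at most 1.16 times.

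AP1S3 was higher on the wide side of the epithelium in all 4 batch comparisons. Its levels were 24.1 and 29.0 TPM in lateral epithelium and 43.9 and 56.2 TPM in medial epithelium, without overlap, and the medial level was 1.82 and 1.94 times the lateral level within batches I and II. Dorsal epithelium had 4.26 and 2.44 TPM and breast epithelium 28.4 and 25.4 TPM, or 6.67 and 10.4 times more within a batch. The breast libraries overlapped the lateral ones in level, so for AP1S3 a wide plume vane and a narrow remige vane had about the same TPM in their separate tables.

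MSANTD1 ran the other way. In dorsal epithelium it was at 167 TPM in batch I and 150.2 TPM in batch II, against 15.5 and 15.8 TPM in breast epithelium, so the narrow level was 10.8 and 9.53 times the wide level. In remiges the lateral libraries had 79.6 and 98.1 TPM and the medial ones 61.8 and 78.3 TPM. The lateral level was 1.29 and 1.25 times the medial level within a batch (log2 differences 0.36 and 0.32), and the lower lateral library (79.55 TPM) lay just above the higher medial one (78.30 TPM). Both sides were again higher in batch II, by 1.27 times on the medial side.

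All 5 genes thus held their direction within batch I and within batch II, in remiges and in plumes. Of 12954 remige genes, 37.8% were lower and 25.3% higher on the lateral side of the epithelium within both batches. In plumes the shares lower and higher on the dorsal side were 37.1% and 34.2%, and over all 4 batch comparisons of both feather types 19.9% and 12.8% of 12634 genes. Groups that did not overlap were found for 15.2% (lateral below medial) and 11.5% (lateral above) of remige genes, and for 30.3% and 28.1% of plume genes. Nothing is read from the 5 genes against these shares, since the same contrast picked them. For PRPS2, TXNRD1 and AP1S3 the smaller within-batch ratio of remiges exceeded the largest ratio between batches of a side, and for CA13 and MSANTD1 it did not. The lateral and medial parts came from the same follicles and their batch differences went together across genes (r = 0.805), so the comparison within a batch leaves out a spread that both sides share. Across all genes, the 5 included, limma called 1 difference between lateral and medial epithelium (0.00772%) and 2337 between dorsal and breast epithelium (17.6%, 8.55% or 1132 higher and 9.1% or 1205 lower, with a split of 1709 and 1073 with equal upper quartiles and 986 and 1728 with RPKM as deposited).

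**Figure D2:**
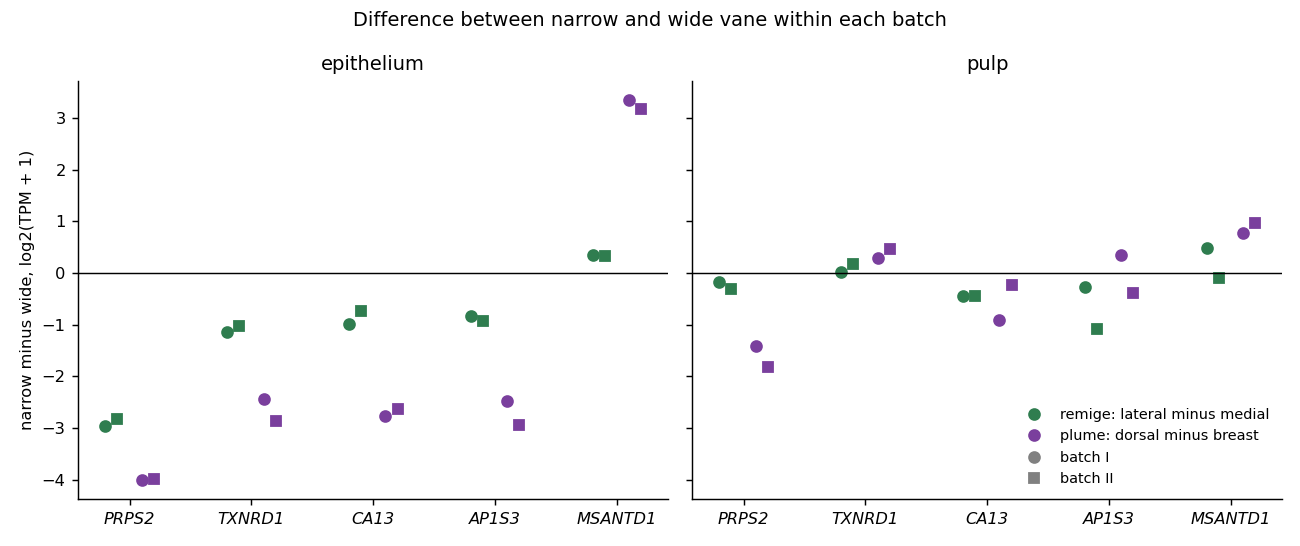
Narrow minus wide difference of each gene in log2(TPM + 1) within batch I (circles) and batch II (squares), in epithelium (left) and pulp (right), for remiges (green, lateral minus medial) and plumes (purple, dorsal minus breast). In epithelium both batches lie on the same side of 0 for every gene, with PRPS2 lowest and MSANTD1 above 0. In pulp PRPS2 stays below 0 in plumes while MSANTD1 of remiges and AP1S3 of plumes have batches on both sides of 0.

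In plumes some markers of the state of the epithelium passed between the 2 sides, where 17.6% of all genes did. In remiges none of these markers passed, where 1 of 12954 genes did (0.00772%). The lack of calls there thus does not show that the remige sides were alike. The listed feather keratins F-KER, FK21 and FK27 summed to 273 to 378 TPM in lateral and 650 to 1127 TPM in medial epithelium. In plumes they summed to 33.0 to 89.4 TPM in dorsal and 1739 to 1804 TPM in breast epithelium. All 3 were lower in dorsal than in breast epithelium, where limma's adjusted p ranged from 0.00602 (FK21) to 0.00797 (FK27), and none of these calls held without batch II of dorsal or without either batch of breast epithelium (adjusted p of F-KER up to 0.0825). Of the 3, 0 passed between lateral and medial epithelium (median log2 difference -1.53). The study's own list of epithelial genes lower with narrow vanes, drawn from these samples, holds these 3 keratins. It also holds PADI1, SCEL, TXNRD1, CA13 and AP1S3, so none of these genes is independent of that list. Of 11 genes of basal keratinocytes, 5 rose and 1 fell in dorsal against breast epithelium, where 8.55% of all genes rose and 9.1% fell. The gene that fell was DST (log2 difference -0.59). KRT15, a basal keratin, averaged 532 ± 48.7 TPM (SD, n = 2) in dorsal against 157 ± 9.01 TPM in breast epithelium, and COL17A1, a hemidesmosome collagen, at 249.7 ± 52.4 and 73.7 ± 5.69 TPM. The cornification list was mixed. Of 12 genes tested 5 were above 0, with a median log2 difference of -0.01, and the 14 measured summed to 7644 to 9116 TPM in dorsal against 7141 to 7409 TPM in breast epithelium, and to 15060 to 18070 TPM in lateral against 10340 to 15830 TPM in medial epithelium. The 3 that passed (PADI1, PADI3 and SCEL) were lower in dorsal epithelium, PADI3 also with any library left out. PADI3 was low, with means of 0.173 TPM in dorsal and 2.93 TPM in breast epithelium. PADI1, a peptidylarginine deiminase, was at 6.08 ± 4.95 in dorsal against 100.7 ± 0.525 TPM in breast epithelium. In remige epithelium 0 of the 11 basal and 0 of the 13 cornification genes passed. Of 27 cell cycle genes, 0 rose and 1 fell in dorsal epithelium.

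Fibroblast markers were at low levels in epithelium, whereas melanocyte markers differed between dorsal and breast epithelium. The 20 fibroblast genes summed to 337 to 372 TPM in lateral, 339 to 355 TPM in medial, 249.5 to 513 TPM in dorsal and 315 to 348 TPM in breast epithelium, against at least 26270 TPM in any pulp library. Of 12 melanocyte genes tested in plumes, 7 rose and 2 fell in dorsal epithelium, where 8.55% of all genes rose and 9.1% fell. The 13 melanocyte genes measured summed to 395 to 485 TPM there against 198 to 227.2 TPM in breast epithelium. In remige epithelium they summed to 49.1 to 55.7 TPM (lateral) and 52.1 to 61.1 TPM (medial). Of the 20 fibroblast genes 2, FBLN1 and CDERMO-1, rose and 0 fell in dorsal against breast epithelium. No melanocyte or fibroblast gene passed between the remige sides, where 1 of 12954 genes did. The part of these states and cells in the level of the 5 genes was not tested.

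**Figure D3:**
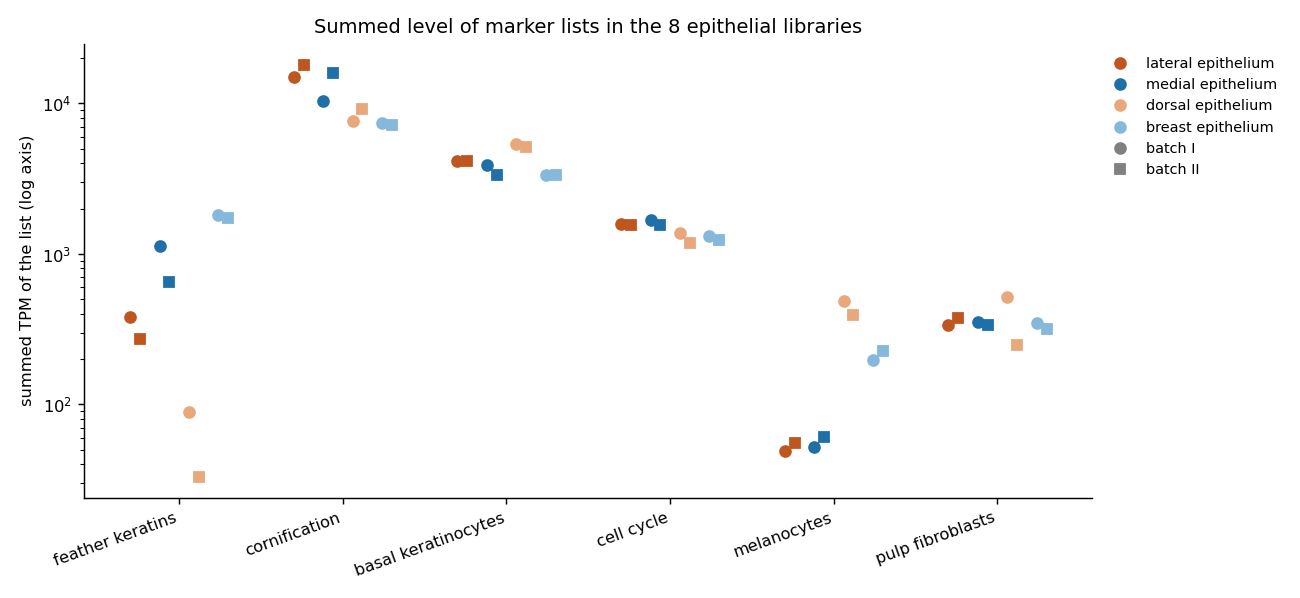
Summed TPM (log axis) of 6 marker lists in each of the 8 epithelial libraries, by group, with circles for batch I and squares for batch II. The listed feather keratins sum to less in both narrow-vane groups, at 33.0 to 89.4 TPM in dorsal against 1739 to 1804 TPM in breast epithelium. They are also on the study's own list of genes lower with narrow vanes, and none passed in remiges, where 1 of 12954 genes did. Fibroblast sums stay between 249.5 and 513 TPM in all 4 groups.

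In the pulp the 5 genes did not follow one pattern. PRPS2 in breast pulp was at 14.5 TPM in both batches, close to its level in breast epithelium, and in dorsal pulp at 4.81 and 3.41 TPM. The breast libraries lay above both dorsal ones, a log2 difference of -1.61 (SE 0.17, limma adjusted p = 2.43e-04) with a breast mean 3.53 times the dorsal mean. In remige pulp PRPS2 had 2.83 and 2.91 TPM laterally and 3.34 and 3.85 TPM medially. These groups did not overlap either, but the log2 difference of -0.25 (SE 0.18) did not pass (limma adjusted p = 1.0). PRPS2 thus was at 2.83 to 4.81 TPM in 6 of the 8 pulp libraries and at 14.5 TPM in the breast ones.

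MSANTD1 kept its direction in plume pulp. It had 34.8 and 31.1 TPM in dorsal pulp against 19.98 and 15.3 TPM in breast pulp, a log2 difference of 0.87 (SE 0.13, limma adjusted p = 0.00180) without overlap. In remige pulp its lateral libraries had 20.7 and 18.1 TPM and its medial ones 14.6 and 19.5 TPM. These overlapped, and the log2 difference of 0.19 did not pass (limma adjusted p = 1.0).

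CA13 was lower in both narrow-vane pulps by a smaller margin. Dorsal pulp had 7.54 and 9.94 TPM and breast pulp 15.0 and 11.8 TPM, a log2 difference of -0.57 (SE 0.17, limma adjusted p = 0.0366). That call held in 8 of 13 alternatives and was lost without batch I of dorsal pulp (adjusted p = 0.226) and without batch I of breast pulp (adjusted p = 0.201), over a range of 0.0218 to 0.226. Lateral pulp had 11.5 and 11.6 TPM and medial pulp 15.9 and 16.2 TPM. The remige libraries were tightly grouped and separate, with a log2 difference of -0.44 (SE 0.36) that did not pass (limma adjusted p = 1.0).

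For TXNRD1 the order of the plume sides in pulp was the opposite of that in epithelium. It had 52.7 and 52.4 TPM in dorsal pulp and 42.7 and 37.4 TPM in breast pulp, so both dorsal libraries were above both breast ones. The log2 difference of 0.39 (SE 0.17) did not pass (limma adjusted p = 0.1201, 0.0327 to 0.400 over 13 alternatives, under the threshold in 2). In remige pulp the 42.3 and 50.8 TPM of the lateral side and the 41.6 and 45.0 TPM of the medial side overlapped, with a log2 difference of 0.10 (limma adjusted p = 1.0).

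AP1S3 was low in every pulp library. It had 5.91 and 3.24 TPM in lateral and 7.33 and 8.04 TPM in medial pulp, which were separate but did not pass (log2 difference -0.68, SE 0.27, limma adjusted p = 1.0). In plumes the 2.79 and 2.61 TPM of dorsal pulp lay within the 1.95 to 3.75 TPM of breast pulp, with a log2 difference of -0.02 (limma adjusted p = 0.973).

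In plume pulp 3 of the 5 genes thus passed the test, PRPS2 and CA13 lower and MSANTD1 higher in dorsal pulp, where 28.2% of 13246 genes passed, 15.2% lower and 13.0% higher. In remige pulp 0 of the 5 passed and 0 of all 12954 genes (0.0%), with 468 genes at an unadjusted p under 0.05. Sides that did not overlap in pulp, with the narrow side below, were those of PRPS2 and CA13 in both feather types and of AP1S3 in remiges, and such genes made up 12.4% of remige and 38.4% of plume genes. Those with the narrow side above were MSANTD1 and TXNRD1 in plumes, among 28.5% of plume genes and 9.22% of remige genes.

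Keratinocyte markers in the pulp were mostly lower on the narrow side, but their plume sums overlapped and none passed in remiges. Of all marker calls in plume pulp, 11 of 43 held with each library left out. The 19 keratinocyte markers summed to 1810 to 2089 TPM in lateral and 2246 to 2736 TPM in medial pulp, and to 1204 to 1549 TPM in dorsal and 1354 to 2356 TPM in breast pulp. In dorsal pulp 9 of 19 were lower, 0 higher, and their median log2 difference was -0.78, against -0.06 for all plume genes. In lateral pulp 16 of 19 were below 0 (median -0.66) and 0 passed. The keratin KRT18 was listed at 0 in both dorsal pulp libraries. Feather keratins summed to 11.6 TPM in batch I and 148.5 TPM in batch II of breast pulp. Without batch II of breast pulp the log2 difference of PRPS2 was -1.61, that of CA13 -0.73 and that of MSANTD1 0.69. Keratinocyte markers were present in every other pulp library as well, so leaving out 1 library cannot measure their part. Of 16 endothelial genes, 9 were called lower in dorsal pulp. The part of either cell type in the pulp values was not tested.

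The genes also differed in where they were expressed. Their epithelial values picked these genes and enter their epithelial averages, in remiges and in plumes. The limma p-values of these genes for epithelium against pulp therefore describe these libraries. They are no independent test of where a gene is expressed. In remiges AP1S3 and MSANTD1 had higher levels in epithelium than in pulp. AP1S3 averaged 38.3 TPM over the 4 remige epithelial libraries and 6.13 TPM over the 4 pulp libraries, a log2 difference of 2.44 (SE 0.19, limma adjusted p = 4.05e-05), and MSANTD1 averaged 79.4 and 18.2 TPM (2.06, SE 0.15, limma adjusted p = 2.63e-05). CA13 averaged 36.2 and 13.8 TPM (1.23, SE 0.25, limma adjusted p = 0.00488). In these 3 genes every epithelial library lay above every pulp library. TXNRD1 averaged 38.9 TPM in epithelium and 44.9 TPM in pulp with overlap, and its log2 difference of -0.31 (limma adjusted p = 0.102) was close to the median of all remige genes, -0.35. Under quantile normalization that median was 0.15, a shift of over 0.1, and the TXNRD1 difference was 0.01, so its direction depends on the scaling.

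An average over the sides hides the pattern of PRPS2. Its remige test gave a log2 difference of 0.39 (SE 0.13, limma adjusted p = 0.0322), which passed in 6 of 15 alternatives (adjusted p from 1.55e-04 to 0.21, log2 difference 1.34 under quantile normalization), but medial epithelium was 3.91 times medial pulp whereas lateral pulp was 2.79 times lateral epithelium. In plumes the average was lower in epithelium (log2 difference -1.08, SE 0.12, limma adjusted p = 3.63e-05), with a breast epithelium at 1.09 times breast pulp.

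The plume averages of the other 4 genes also passed and also joined unlike sides. MSANTD1 had a log2 difference of 1.04 for epithelium against pulp (SE 0.10, limma adjusted p = 9.43e-06). By side, dorsal epithelium was 4.82 times dorsal pulp, whereas breast pulp was 1.13 times breast epithelium. AP1S3 had a log2 difference of 1.55 (limma adjusted p = 5.95e-05), from 9.43 times in breast and 1.24 times in dorsal plumes. CA13 had 0.54 (limma adjusted p = 0.00291), with breast epithelium at 3.16 times breast pulp and dorsal pulp at 1.53 times dorsal epithelium. TXNRD1 had -0.63 (limma adjusted p = 0.00101), with dorsal pulp at 4.66 times dorsal epithelium and breast epithelium at 1.87 times breast pulp. In all, 4 of the 5 genes passed in remiges and 5 of 5 in plumes, where 63.6% and 77.2% of all genes did. Higher in epithelium were 4 in remiges (18.7% of all genes) and 3 in plumes (30.2%), and lower were 0 in remiges (44.9%) and 2 in plumes (47.0%). Nothing is read from the 5 genes against these shares, since their epithelial values picked them and enter these averages. The split of all calls depends on the scaling, with 2417 higher and 5822 lower in remiges against 4742 and 3707 under quantile normalization, and 4001 and 6226 in plumes against 6046 and 4675. In the dorsal follicle PRPS2, TXNRD1 and CA13 thus had their lower level in the epithelium, and in the breast follicle all 3 had their higher level there, by a small margin for PRPS2.

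Ranked over all 8 groups, with the caution that the tables were normalized separately, each gene had its own order. PRPS2 fell into a high set of breast epithelium, breast pulp and medial epithelium (means 15.7, 14.5 and 14.1 TPM), of which medial epithelium overlapped the other two, a middle set of the other pulps and a low set of lateral and dorsal epithelium. TXNRD1 was highest in breast epithelium (74.9 ± 4.17 TPM, SD, n = 2), followed by medial epithelium and dorsal pulp, which overlapped, and lowest in dorsal epithelium (11.3 TPM). CA13 was highest in medial and breast epithelium, which overlapped (46.6 and 42.4 TPM), and again lowest in dorsal epithelium (5.73 TPM). AP1S3 was highest in medial epithelium (50.0 TPM), with breast and lateral epithelium next and overlapping, while dorsal epithelium (3.35 TPM) overlapped every pulp but the medial one. MSANTD1 descended from dorsal (159 TPM) through lateral (88.8 TPM) to medial epithelium (70.1 TPM), and breast epithelium (15.7 TPM) overlapped the medial and breast pulps at the lower end. Dorsal epithelium was the lowest of the 8 groups by mean for PRPS2, TXNRD1 and CA13 and the highest for MSANTD1.

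The relatives of the 5 genes were examined to see whether the families or pathways moved as a whole. Between lateral and medial epithelium 0 of the 82 relatives tested in 5 lists passed, where 1 of 12954 genes did. Between dorsal and breast epithelium 10 of the 82 did (12.2%), with log2 differences of -1.63 to 1.66, whereas 17.6% of all genes did. Of these calls 3, those of PRDX6, CA6 and CA10, held with each of the 4 libraries left out. Of 16 other genes of purine, pyrimidine and PRPP synthesis 2 rose and 0 fell. AIRC averaged 62.2 ± 0.663 TPM in dorsal against 45.6 ± 4.17 TPM in breast epithelium (log2 difference 0.44, limma adjusted p = 0.0123), and ADSL, adenylosuccinate lyase, at 102 ± 2.74 and 76.8 ± 1.39 TPM (0.41, adjusted p = 0.0163). PRPSAP1 and PRPSAP2, which encode proteins associated with the PRPP synthetases, did not pass (log2 differences -0.26 and 0.18). PRPS1, the close relative of PRPS2, was not analysed here, and reads that fit both genes cannot be told apart. The median of the list was 0.09, against 0.00 over all plume genes.

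**Figure D4:**
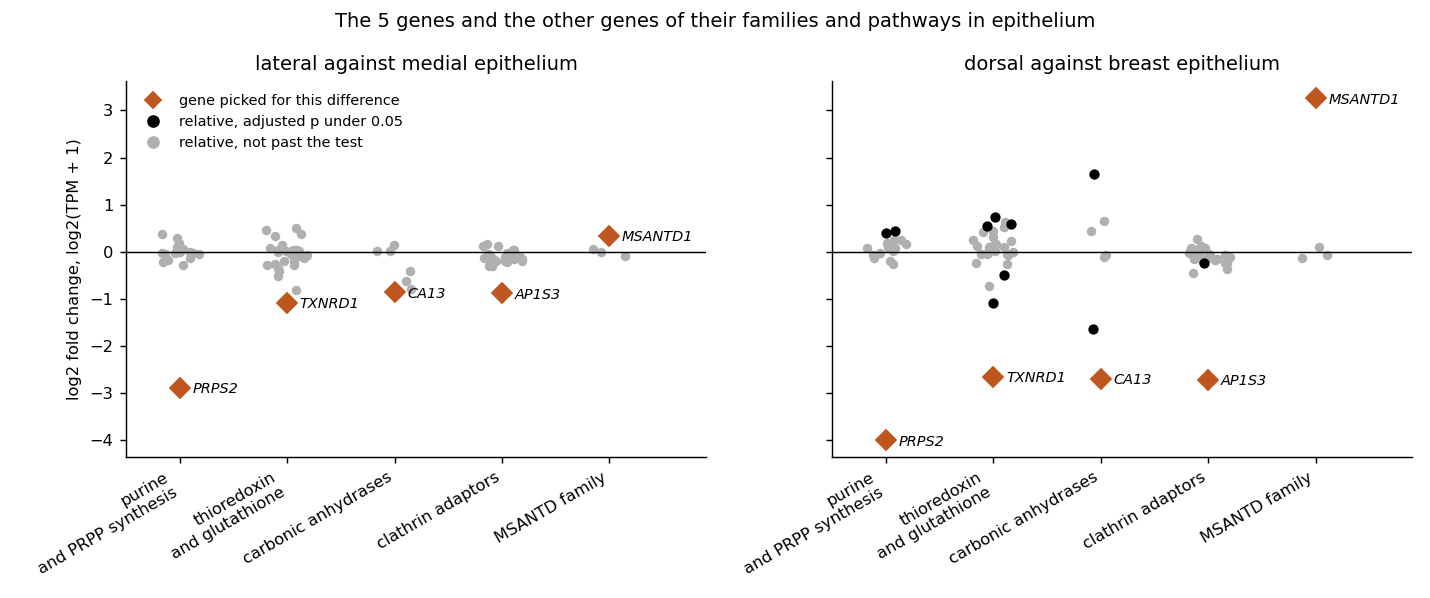
Narrow against wide log2 fold change in remige epithelium (left) and plume epithelium (right) of the 5 genes (orange diamonds, picked for this difference) and of the other genes of their 5 families and pathways (grey points, or black where limma's adjusted p was under 0.05), on the log2(TPM + 1) scale. No relative is black in remiges, and in plumes 2 purine, 5 thioredoxin and glutathione, 2 carbonic anhydrase and 1 adaptor gene are black.

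Of 29 other genes in the thioredoxin and glutathione list 3 rose and 2 fell in dorsal epithelium, with a median of 0.11. The list also held linked enzymes such as PGD, TALDO1, TKT, ME1, RRM1 and RRM2. GCLC, the catalytic subunit of the ligase that starts glutathione synthesis, averaged 15.0 ± 5.27 TPM in dorsal against 32.0 ± 3.39 TPM in breast epithelium (log2 difference -1.08, limma adjusted p = 0.00769), in the direction of TXNRD1, as was GSS, glutathione synthetase (-0.50, adjusted p = 0.0437). The peroxiredoxins PRDX6 (0.75, adjusted p = 0.00110) and PRDX1 (0.55, adjusted p = 0.00630) and NFE2L2, a transcription factor of the oxidative stress response (0.59, adjusted p = 0.0309), were higher in dorsal epithelium. TXN, thioredoxin itself, was at 8605 ± 1725 and 7917 ± 237 TPM, and TXNRD2 and TXNRD3, the other thioredoxin reductases, were at 9.43 ± 2.64 and 95.8 ± 24.6 TPM in dorsal against 6.70 ± 0.452 and 75.6 ± 8.39 TPM in breast epithelium, none of which passed.

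Of 10 other carbonic anhydrases 6 reached the level tested. CA6, the secreted isoenzyme, was lower in dorsal epithelium, at 6.17 ± 1.49 against 21.0 ± 0.726 TPM (log2 difference -1.63, limma adjusted p = 0.00124), and CA10, a member without catalytic activity, was higher, at 6.62 ± 1.70 against 1.39 ± 0.155 TPM (1.66, adjusted p = 6.89e-04). CA2, an abundant cytosolic isoenzyme whose gene lies close to CA13 in the RefSeq gene order, was at 820 ± 34.1 and 886 ± 21.3 TPM in dorsal and breast epithelium and at 3214 ± 1079 and 3144 ± 725.5 TPM in lateral and medial epithelium. It did not pass in either. In plume pulp CA2 was lower on the dorsal side, as CA13 was, at 176 ± 14.4 against 355 ± 84.2 TPM (-0.99, adjusted p = 0.00129).

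Of 28 other genes in the clathrin adaptor list 0 rose and 1 fell in dorsal epithelium. The list also held clathrin chains, ARF1, M6PR and IGF2R. The gene that fell was AP2M1, the medium chain of the plasma membrane adaptor AP-2 (191 ± 1.27 against 227.1 ± 6.10 TPM, log2 difference -0.25, limma adjusted p = 0.0465, a call that held under 1 of 3 other scalings). AP1S2, another small subunit of AP-1, was at 28.7 ± 3.79 and 28.4 ± 0.877 TPM and did not pass. The median of the list was -0.11 in plumes and -0.12 in remiges, against 0.00 and -0.03 over all genes. In remige epithelium against pulp AP1M2, the epithelial medium chain of AP-1, was higher as AP1S3 was (log2 difference 2.80, adjusted p = 1.97e-05), whereas AP1S2 was lower (-1.47, adjusted p = 3.22e-05). Of the 3 other MSANTD genes 0 passed in dorsal against breast epithelium. MSANTD4 was at 30.4 ± 3.72 and 32.0 ± 3.69 TPM and C11ORF61 at 15.2 ± 1.47 and 14.1 ± 0.516 TPM.

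Genes whose level went most closely with each of the 5 over the libraries were found by Pearson's r of log2(TPM + 1) among 10931 genes. The libraries share tissue, feather type, batch and table, so r is a description of these 16 libraries. Over all 16 libraries CA13 was most like ADA, adenosine deaminase (r = 0.974), whose means were 37.4 and 54.8 TPM in lateral and medial and 11.8 and 61.7 TPM in dorsal and breast epithelium. MIPEP, a mitochondrial peptidase (0.937), and the receptor gene IL1RL1 (0.917) followed. AP1S3 was most like the chemokine receptor CCR7 (0.965), PADI3 (0.951) and the mitochondrial co-chaperone GRPEL1 (0.948). By group mean CCR7 reached no more than 3.48 TPM, and PADI3 no more than 0.31 TPM in pulp.

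For PRPS2 the closest gene over 16 libraries was NFKB1, a subunit of the transcription factor NF-κB (r = 0.925), which rose from 29.9 to 45.7 TPM from lateral to medial and from 25.95 to 47.4 TPM from dorsal to breast epithelium by mean, a far smaller span than that of PRPS2. CIB1 (0.906) and the monoglyceride lipase gene MGLL (0.868) came next. TXNRD1 was most like SNPH (0.912), PDE7B, a phosphodiesterase (0.853), and NANS, which makes sialic acid (0.820). MSANTD1 was most like GATM, the first enzyme of creatine synthesis (0.907, at no more than 2.33 TPM by group mean), WNT3A, a WNT ligand (0.884), and the AP-2 transcription factor TFAP2B (0.874). WNT3A averaged 44.8 TPM in dorsal against 7.41 TPM in breast epithelium and 15.8 and 11.1 TPM in lateral and medial epithelium, the order in which MSANTD1 stood.

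Over the 8 epithelial libraries alone, whose values picked the 5 genes, the lists changed for most genes. NFKB1 stayed first for PRPS2 (r = 0.991, then ACAT1 with 0.975 and PHLDA3 with 0.968), and ADA stayed among the first 3 for CA13 (0.987, with BLOC1S4 at 0.990 and PALM at 0.985). TXNRD1 was most like the feather keratin F-KER (0.982), then SURF6 and C12H3ORF37 (both 0.980). F-KER averaged 48.7 TPM in dorsal, 211.5 TPM in lateral, 536 TPM in medial and 1552 TPM in breast epithelium, the order of TXNRD1. Both genes are on the study's own list of epithelial genes lower with narrow vanes, so their likeness is no independent result. AP1S3 was most like EPAS1, a hypoxia-inducible transcription factor (0.994), EBNA1BP2 (0.991) and MRPL47 (0.990), and MSANTD1 most like the tetraspanin CD151 (0.976), CTSB (0.9705) and CHST13 (0.967). Among the 5 themselves CA13 and AP1S3 had r = 0.938 in epithelium, and MSANTD1 was negative with all others (-0.52 with AP1S3 to -0.87 with TXNRD1). The choice of members by their epithelial levels fixes both signs in part.

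Genes that neighbour the 5 on their chromosomes, 2 on each side in the RefSeq gene order, were compared as well. Of 18 tested in plumes, 1 passed in dorsal against breast epithelium, where 17.6% of all genes did. This was SCG2, next to AP1S3, at 1.34 against 5.11 TPM (log2 difference -1.41, limma adjusted p = 0.00274). In remiges 0 of 19 passed, where 1 of 12954 genes did. In the RefSeq annotation CA13 overlaps C8orf59 and AP1S3 overlaps an unnamed long non-coding gene, neither of which was analysed here. The strand setting of the counting is not given in the sources used here, so reads of overlapping genes cannot be told apart.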

How the data were processed

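Libraries were made by the authors from 4 μg of RNA per sample and sequenced as 50 bp single-end reads. Per the submitters' processing notes and the study's methods, trimmed reads were aligned to galGal4 with Partek software, and TopHat2 is also named. Tool versions, the gene annotation, whether counting used strand and how reads with several hits were treated are not given in the sources used here. The authors deposited RPKM values per gene, scaled to gene length and depth, in 1 table for remiges and 1 for plumes, and a count of alignments per library. The counting error of a gene is thus unknown, and precision rests on the 2 libraries of a group, which the study calls biological replicates.

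RPKM were divided by their library sum and multiplied by 1000000 to give TPM. A gene was tested if 1 of the 4 group means reached 1 TPM. Tests were made on log2(TPM + 1), which understates the change of low genes, with limma 3.58.1 (eBayes with trend) in R 4.3.3, with 4 residual degrees of freedom per table and Benjamini-Hochberg adjustment over all genes at 0.05. In remiges the 2 sides of 1 batch may form pairs, since both parts came from the same follicles, and their batch differences correlated across genes with r = 0.805 in epithelium and 0.731 in pulp (dorsal and breast plumes 0.089 and 0.045). The counts of calls, the values of the 5 genes and the calls in the gene lists were recomputed with a batch block, with each library left out, with RPKM, equal upper quartiles or quantile normalization in place of TPM, with a filter at 25 TPM or none, with a pseudocount of 0.1 or 5 TPM, and with only the groups compared. The scripts were tested on simulated data. Python 3.11.15 with matplotlib 3.10.9 made the figures.

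The 5 genes and all gene lists were chosen with earlier results of these data known. Beside the 5, the text names the 3 genes with the highest Pearson r to each of them, over 16 and over 8 libraries, and from every pathway list at most 4 genes that passed, by size of change (where none did, the 2 of highest mean TPM). Other list members and chromosomal neighbours were added after their values were seen. Names were matched by symbol or RefSeq synonym, and gene order came from the RefSeq assembly GRCg7b, used without coordinates.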

Additional observations from a re-analysis of the deposited data

Results flagged for a closer look

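TXNRD1 was singled out because its narrow-against-wide difference had opposite signs in the epithelium and the pulp of plumes, with every library of each tissue on its own side. The log2 difference was -2.65 in dorsal against breast epithelium and 0.39 in dorsal against breast pulp, which is 3.04 apart. The pulp difference did not pass (limma adjusted p = 0.1201). Of all plume genes 28.5% had both dorsal pulp libraries above both breast ones. Dorsal epithelium had 13.6 and 8.999 TPM against 77.9 and 72.0 TPM in breast epithelium, and dorsal pulp 52.7 and 52.4 TPM against 42.7 and 37.4 TPM in breast pulp. The difference between the tissues was not tested, because the epithelial difference was used to pick the gene.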

How the results depend on the processing

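The 5 genes held their direction within both batches of remige and of plume epithelium (5 of 5 each) with RPKM as deposited, equal upper quartiles and quantile normalization. They were picked for that difference, so this count is no test of it. In TPM, 37.8% of remige genes were lower and 25.3% higher on the narrow side within both batches, and 37.1% and 34.2% of plume genes. With the batch as a replicate block, which uses the pairing of the remige sides, calls numbered 6 in place of 1 between lateral and medial epithelium and 36 in place of 0 between lateral and medial pulp, and the block changed no call of the 5 genes in pulp or between tissues. Between lateral and medial epithelium there were 4 calls with a pseudocount of 0.1 TPM and 4 with no filter, 2 with RPKM and 2 with equal upper quartiles, and 0 with a minimum of 25 TPM, quantile normalization or only the groups compared. Leaving out 1 library gave 0 to 0 there, 0 to 11 between lateral and medial pulp, 829 to 2029 (2337 with all) between dorsal and breast epithelium and 2084 to 2723 (3735) in pulp. Lateral against medial pulp had 10 calls with a pseudocount of 5 TPM, 2 with no filter, 4 with RPKM and 2 with quantile normalization. With a minimum of 25 TPM, where fewer genes were tested, the separate fits gave 4567 calls between remige tissues (8239 at 1 TPM), 6001 between plume tissues (10227) and 2216 in plume pulp (3735). Directions that reversed were those of small differences. AP1S3 in plume pulp had 0.0043 with quantile normalization and -0.360 to 0.324 over all alternatives, TXNRD1 between remige tissues 0.015 with quantile normalization, and leaving out 1 library gave -0.0069 to 0.389 for MSANTD1 and -0.031 to 0.228 for TXNRD1 in remige pulp. TXNRD1 in plume pulp passed with quantile normalization (adjusted p = 0.0330) and with only the groups compared (0.0327). Under a minimum of 25 TPM, PRPS2 was not tested, and for epithelium against pulp a fit of only the groups compared equals the fit given. The alternatives for the gene lists were added after the data were seen. Between dorsal and breast feathers 0 of the 10 relatives called in epithelium and 0 of the 19 in pulp changed direction, but with each library left out 3 and 5 of these calls held, and under every other setting 7 and 10. Of the marker calls 8 of 30 in epithelium and 11 of 43 in pulp held with each library left out. Depth per gene is unknown, and 2 libraries a group limit all errors.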

Other observations

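In plume pulp 19 of the 82 relatives of the 5 genes passed between dorsal and breast feathers (23.2%), where 28.2% of all genes did. In remige pulp 0 of the 82 and 0.0% of all genes passed. With each of the 4 pulp libraries left out, 5 of the 19 calls held, those of HPRT1, PURH, PRPSAP1, GPX1 and CA2. Of 16 genes of purine, pyrimidine and PRPP synthesis 1 rose and 3 fell in dorsal pulp. HPRT1, which salvages hypoxanthine with the product of PRPS2, was at 26.3 ± 2.68 TPM (SD, n = 2) in dorsal against 45.1 ± 1.06 TPM in breast pulp (log2 difference -0.76, limma adjusted p = 0.00207), and PURH at 325 ± 15.7 against 504 ± 6.70 TPM (-0.63, adjusted p = 6.58e-04). GART fell as well (-0.36, adjusted p = 0.0260), while PRPSAP1 rose, at 44.2 ± 3.75 TPM in dorsal against 31.0 ± 1.73 TPM in breast pulp (0.50, adjusted p = 0.00575). PRPS2 was lower in dorsal pulp, too, and these comparisons share the same 4 libraries.

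Of 29 genes in the thioredoxin and glutathione list, linked enzymes included, 3 rose and 2 fell in dorsal pulp, with TALDO1 among the 3. GPX3, the secreted glutathione peroxidase, averaged 506 ± 29.4 TPM in dorsal against 991 ± 68.8 TPM in breast pulp (log2 difference -0.97, limma adjusted p = 0.0482), and GPX1 fell as well (-0.46, adjusted p = 0.00356). NQO1 (0.71, adjusted p = 0.0256) and TXN (0.46, adjusted p = 0.0468) were higher in dorsal pulp, and the TXN call held under 1 of 3 other scalings. GPX3 and NQO1 lost their calls without any 1 of the 4 libraries, with adjusted p up to 0.216 and 0.157. Of 6 carbonic anhydrases 3 were lower in dorsal pulp, CA2, CA12 and CA6, and CA10 was higher. The CA12 and CA6 calls each held under 2 of 3 other scalings. Of 28 genes in the clathrin adaptor list 3 rose and 3 fell, with ARF1 among those that rose and M6PR among those that fell. AP1M2 fell by the widest margin (1.47 ± 0.300 against 4.56 ± 2.26 TPM, -1.12, limma adjusted p = 0.0114). That call was lost with 1 dorsal library left out. Keratinocyte markers were lower in dorsal pulp for 9 of 19 genes, with a median log2 difference of -0.78, beside the AP1M2 value. Leukocyte markers were below 0 for 16 of 16 genes in dorsal pulp, with 4 called lower. The part of either cell type in these values was not tested.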
